A study of Mus musculus with 3 samples.

Results

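Macrophages are the phagocytes that reside in almost every tissue, and microglia are their counterparts in the brain. Their identity rests on the transcription factor PU.1 and on the receptor for colony-stimulating factor 1, and their receptors for antibodies, lipids and microbes signal through adaptor proteins with tyrosine motifs to the kinase Syk. The cochlea and the vestibular organs also hold resident macrophages, which clear dying hair cells.

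The genes described here are 43 macrophage identity and signalling genes, out of 47725 genes in the deposited tables. They were chosen by gene name as macrophage genes with their FPKM in these same cultures known, so the contrasts below describe them and are not tests of them. The name column held 42 of the 43; Clec7a had no name there and was taken by its gene identifier.

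The samples were 3 mouse cultures, 1 library each, grown from embryonic stem cell lines named BEM (mutant in an E-box site, named E3), BM (Barhl1 mutant) and WT (wild type). All 3 cultures had been seeded as otic progenitors, which give rise to inner ear cells, on a layer of chicken utricle stroma whose division had been blocked, and all received retinoic acid at 1 µM with EGF at 25 ng/ml up to culture day 9. Barhl1, a homeobox gene of hair cells, stood at 0.0107 FPKM in BEM, 95.1 FPKM in BM and 126 FPKM in WT. Barhl1 RNA was nearly absent in the E-box mutant and present in the library labelled as Barhl1 mutant, so its level does not check that label. The sources used here do not give the kind of mutation in BM or the number of clones behind each line. Since each line had 1 library, nothing is replicated or tested, and a difference between lines cannot be told apart from a difference between single cultures.

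The labels call the cells hair cell-like and their type embryonic stem cell. Atoh1, the factor that sets hair cell fate, had 241 FPKM in BEM, 236 FPKM in BM and 270.2 FPKM in WT, and Myo7a, a hair cell myosin, had 9.83 FPKM in BEM, 9.79 FPKM in BM and 0.704 FPKM in WT. Pou4f3 and Otof, hair cell genes too, were at or below 0.0213 FPKM in every culture, while of the stem cell genes Pou5f1 was at 0 in all 3 and Nanog had 21 reads in BEM, 8 in BM and 24 in WT. Library totals were 23813123 reads for BEM, 20111794 for BM and 21555823 for WT. The WT library stood apart: 25.9% of 12875 measured genes were 2-fold apart between BEM and WT and 25.8% between BM and WT, but 0.784% between BEM and BM.

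The label was checked against 11 macrophage markers, 7 of which are also among the 43. Those 7 were chosen with their levels in these cultures known, so their values are not an independent check. Itgam, Cx3cr1, Cd163 and Mertk are outside the 43. In BEM and in BM 10 of the 11 were at or above 1 FPKM, against 2 of 11 in WT, which were Cd68 and the phagocytic kinase Mertk. Their summed level was 314 FPKM in BEM, 303 FPKM in BM and 12.6 FPKM in WT. Itgam, the alpha chain of the macrophage integrin Mac-1, had 140 reads in BEM, 109 in BM and 0 in WT. Cx3cr1, the fractalkine receptor, had 3.88 FPKM in BEM, 3.65 FPKM in BM and 0.0124 FPKM in WT. Cd163, the haemoglobin scavenger receptor of some resident macrophages, had 0 reads in BEM, 1 in BM and 0 in WT. Mertk was within 2-fold of its WT level in both mutant cultures. In RNA from whole cultures, fewer cells of a type and less RNA per cell cannot be told apart.

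Promoter sequence bears on PU.1, which binds purine-rich words with a GGAA core. The word GAGGAA, or its reverse complement TTCCTC, was searched on both strands in windows of 300 bases, 250 before to 50 after each start site, from RefSeq on GRCm38.p6. At least 1 window was found for 32 of the 43 genes, and 21 of those 32 (65.6%) held the word, against 31.3% of all 27025 genes with a window. A match is a description of letters and not a site of binding. The upstream 250 bases of 8 genes are printed, each read along its own strand, with the word in capitals. C1qb at chr4:136886201-136886450 (minus strand), Trem2 at chr17:48346151-48346400 (plus strand), Fcgr1 at chr3:96293970-96294219 (minus strand), Vav1 at chr17:57278850-57279099 (plus strand) and Dock2 at chr11:34783906-34784155 (minus strand) are shown as genes that hold the word and were high in BEM and BM. Mpeg1 at chr19:12460520-12460769 (plus strand) is shown as a gene that was high in both without it. Clec7a at chr6:129472780-129473029 (minus strand) and Slamf9 at chr1:172475110-172475359 (plus strand) are shown as genes that hold it and were not 2-fold higher in either mutant culture.
C1qb: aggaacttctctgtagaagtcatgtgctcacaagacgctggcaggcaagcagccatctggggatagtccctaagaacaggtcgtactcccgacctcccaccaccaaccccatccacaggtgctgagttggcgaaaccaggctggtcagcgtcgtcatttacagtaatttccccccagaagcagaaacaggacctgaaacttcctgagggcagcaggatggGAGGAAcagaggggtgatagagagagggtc
Trem2: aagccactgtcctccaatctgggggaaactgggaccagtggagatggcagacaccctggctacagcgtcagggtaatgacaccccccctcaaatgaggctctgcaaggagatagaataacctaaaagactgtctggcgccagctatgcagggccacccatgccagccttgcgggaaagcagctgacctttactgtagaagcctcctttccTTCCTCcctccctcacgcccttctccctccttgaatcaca
Fcgr1: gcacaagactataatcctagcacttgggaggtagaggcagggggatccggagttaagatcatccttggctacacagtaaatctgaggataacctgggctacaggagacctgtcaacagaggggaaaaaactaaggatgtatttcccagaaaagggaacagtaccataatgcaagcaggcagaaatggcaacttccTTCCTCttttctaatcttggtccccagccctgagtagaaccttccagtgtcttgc
Vav1: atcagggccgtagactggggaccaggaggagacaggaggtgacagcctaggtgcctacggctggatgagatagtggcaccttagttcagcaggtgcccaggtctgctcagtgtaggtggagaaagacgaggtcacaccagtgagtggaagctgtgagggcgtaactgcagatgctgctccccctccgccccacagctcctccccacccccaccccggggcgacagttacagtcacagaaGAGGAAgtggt
Dock2: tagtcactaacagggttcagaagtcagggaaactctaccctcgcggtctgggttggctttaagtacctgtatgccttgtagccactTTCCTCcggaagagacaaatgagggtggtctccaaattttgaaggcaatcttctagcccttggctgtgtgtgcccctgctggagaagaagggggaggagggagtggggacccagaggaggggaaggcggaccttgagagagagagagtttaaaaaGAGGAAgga
Mpeg1: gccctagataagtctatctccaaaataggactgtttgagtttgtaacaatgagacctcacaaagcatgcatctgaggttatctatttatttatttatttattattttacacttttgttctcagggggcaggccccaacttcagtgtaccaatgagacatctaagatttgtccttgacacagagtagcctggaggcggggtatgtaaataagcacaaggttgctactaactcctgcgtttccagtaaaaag
Clec7a: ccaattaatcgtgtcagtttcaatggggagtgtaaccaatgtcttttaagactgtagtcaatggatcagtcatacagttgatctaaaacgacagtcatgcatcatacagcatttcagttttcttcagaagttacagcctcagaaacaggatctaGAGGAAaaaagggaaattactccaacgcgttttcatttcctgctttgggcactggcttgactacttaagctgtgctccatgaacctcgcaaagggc
Slamf9: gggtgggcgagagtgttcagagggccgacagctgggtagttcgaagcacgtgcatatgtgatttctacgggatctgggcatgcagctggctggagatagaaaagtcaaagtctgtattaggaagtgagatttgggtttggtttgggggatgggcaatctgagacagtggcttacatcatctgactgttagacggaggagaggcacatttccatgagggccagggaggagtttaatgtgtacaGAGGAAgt

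TGACTCA, the word of AP-1 factors, which neither contains GAGGAA nor is contained in it, was present in 4 of 32 genes (12.5%), which were Cd68, Cd84, Gpnmb and Hcls1, against 5.95% of all genes. GTCACGTG and TCACGTGA, words of the MITF and TFE factors that overlap each other in TCACGTG, were present in 0 of 32, against 2.55% and 1.12% of all genes.

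Of the 43 genes, 38 were at least 2-fold higher in BEM than in WT, where 10.7% of all measured genes were, and 38 were at least 2-fold higher in BM than in WT, where 10.5% were. None of the 43 was 2-fold lower in either culture, against 15.3% of measured genes lower in BEM and 15.3% lower in BM. The 2 comparisons share the WT library. These counts were made on log2(FPKM + 0.5) for genes whose average over the 3 libraries was 1 FPKM or more. The 43 genes had a median log2 ratio to WT of 3.60 in BEM and 3.59 in BM, against -0.07 and -0.08 over all measured genes. Of the 43, 42 passed the filter of 1 FPKM, but 34 of those were under 1 FPKM in WT and passed only through BEM and BM, so these counts and medians restate how the genes were chosen. The genes within 2-fold were Irf8, Lyn, Cd14 and Slamf9; Clec7a was under the filter.

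Together the 43 genes made up 0.398% of the library total in BEM (0.395 to 0.400, exact 95% binomial interval), 0.393% in BM (0.390 to 0.396) and 0.0113% in WT (0.0109 to 0.0118). All intervals here cover counting error only. The median level was 9.15 FPKM in BEM, 9.59 FPKM in BM and 0.120 FPKM in WT. In WT 7 of the 43 had no read, which were C1qa, Spi1, Vav1, Dock2, Ncf4, Btk and Ly86, and 9 had 1 to 3 reads. The 8 genes at or above 1 FPKM in WT were Cd68, Lyn, Cd14, Lyz2, Irf8, Slamf9, Mpeg1 and Lst1, and 4 of those 8 were 2-fold higher in BEM and BM.

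**Figure D1:**
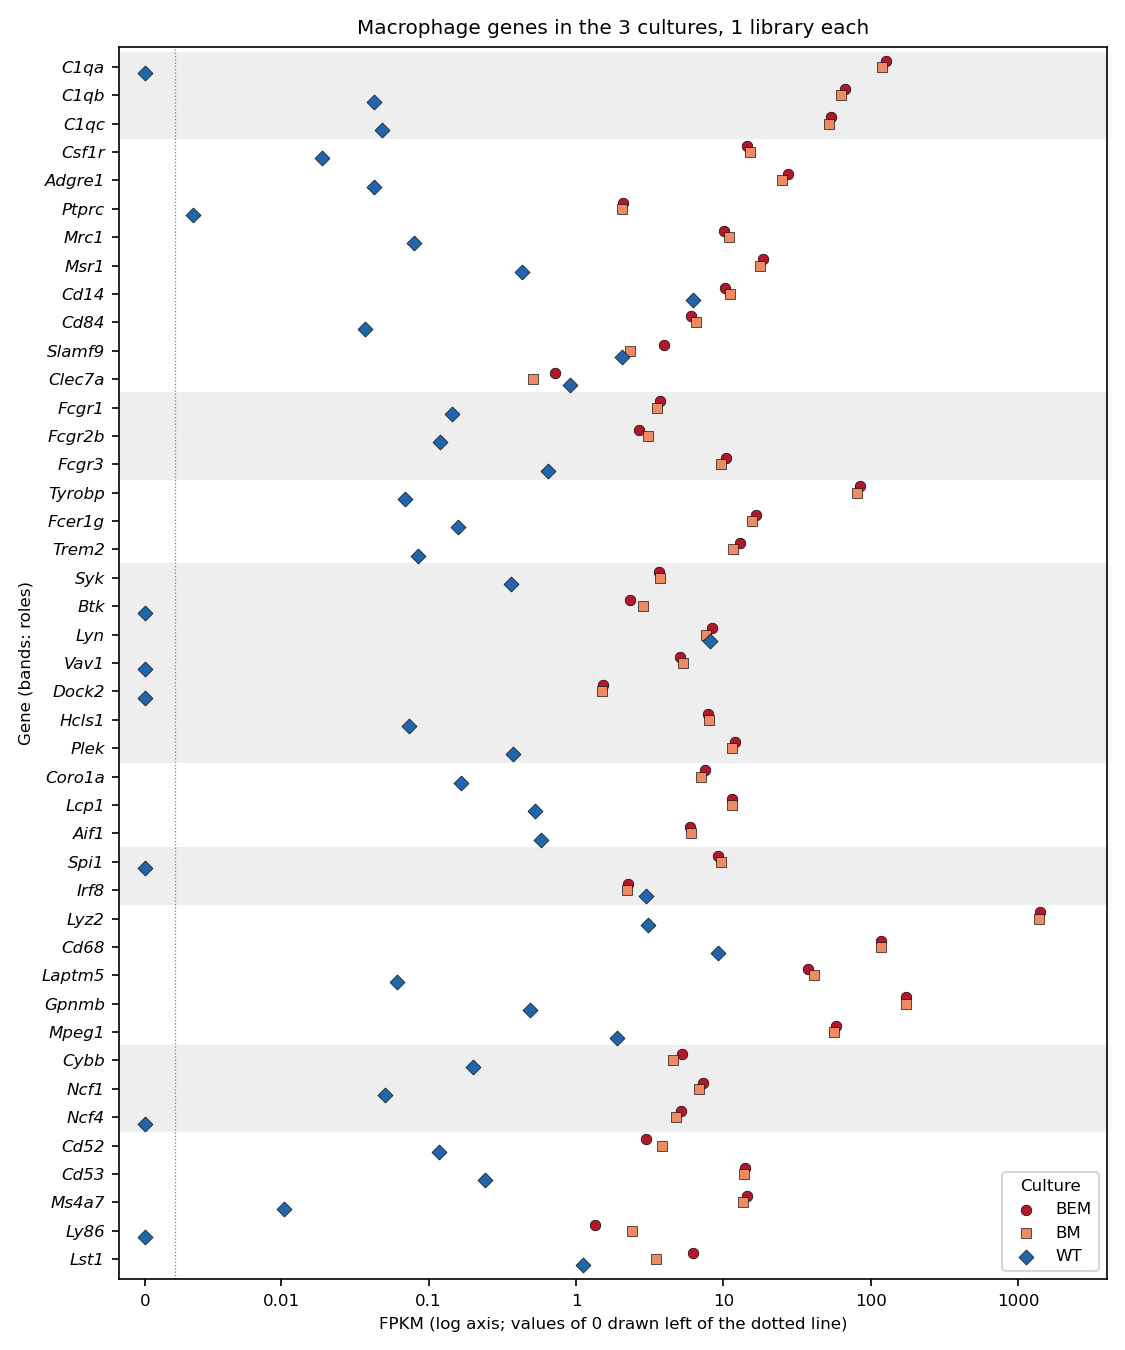
Each row is 1 gene, grouped by role in shaded bands, and each point is its level in 1 library in FPKM on a log axis, for BEM, BM and WT. The BEM and BM points lie close together and far to the right of WT for most genes, with 42 of 43 at or above 1 FPKM in BEM and in BM against 8 in WT.

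Folds for single genes are ratios of reads per library total, with the exact 95% interval where WT had reads. Where WT had no read, 3 reads were set in for WT and the fold is given as at least that value. Such values lie above the exact 95% lower limits of the same ratios. Those limits were 771-fold in BEM and 726-fold in BM for C1qa, and 7.41-fold in BEM and 13.4-fold in BM for Ly86. The reads of Csf1r, Lyz2, Adgre1, Msr1, Cd14, Ncf4, Mpeg1 and Ly86 are less certain than the others, as the annotated gene length did not give whole reads for them.

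The 3 chains of complement C1q, the recognition molecule of the classical complement pathway that macrophages and microglia secrete, lie side by side on chromosome 4 (GRCm38). C1qa (chr4:136895917-136898803) had 127 FPKM in BEM, 119.6 FPKM in BM and 0 FPKM in WT. C1qb (chr4:136880129-136886187) had 66.9 FPKM in BEM, 62.8 FPKM in BM and 0.0426 FPKM in WT. C1qc (chr4:136889804-136893065) had 53.5 FPKM in BEM, 52.3 FPKM in BM and 0.04805 FPKM in WT. All 3 were high in BEM and BM and had at most 2 reads in WT. C1qa was at least 948-fold higher in BEM and at least 894-fold higher in BM than in WT, and C1qb was 1568-fold higher in BEM (281 to 61961) and 1474-fold higher in BM (264 to 58251). C1qc was 1114-fold higher in BEM (308 to 9203) and 1088-fold higher in BM (301 to 8989). The levels kept nearly one ratio between chains: C1qa stood at 1.90 times C1qb in BEM and 1.90 times in BM, and C1qb at 1.249 times C1qc in BEM and 1.202 times in BM.

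Among the surface receptors that mark macrophages, Csf1r encodes the receptor for colony-stimulating factor 1 and interleukin 34, on which most macrophages depend. Csf1r had 14.5 FPKM in BEM, 15.1 FPKM in BM and 0.01899 FPKM in WT. Adgre1, the F4/80 antigen, had 27.3 FPKM in BEM, 25.1 FPKM in BM and 0.0429 FPKM in WT. Ptprc, the pan-leukocyte phosphatase CD45, had 2.08 FPKM in BEM, 2.05 FPKM in BM and 0.00253 FPKM in WT. Each was far above WT in both mutant cultures, where WT had 1 to 3 reads. Csf1r was 765-fold higher in BEM (212 to 6325) and 795-fold higher in BM (219.8 to 6573) than in WT. Adgre1 was 636-fold higher in BEM (217 to 3085) and 586-fold higher in BM (200.3 to 2846). Ptprc was 822-fold higher in BEM (147 to 32499.7) and 809-fold higher in BM (145 to 32004). Csf1r shares 873 exonic bases with Hmgxb3 on the other strand, and the sources used here do not say whether the counting used strand; Hmgxb3 itself had 11.3 FPKM in BEM, 11.6 FPKM in BM and 14.5 FPKM in WT.

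The ligands of that receptor were looked at after their values had been seen. Csf1, colony-stimulating factor 1, had 101 FPKM in BEM, 105 FPKM in BM and 28.6 FPKM in WT, and Il34 had 0.836 FPKM in BEM, 0.812 FPKM in BM and 1.35 FPKM in WT. Csf1 was 3.53-fold higher in BEM (3.39 to 3.67) and 3.66-fold higher in BM (3.52 to 3.805) than in WT. Csf1 was thus present in WT, where its receptor had 2 reads, while Il34 was at or below 1.35 FPKM in all 3 cultures.

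Other scavenger and adhesion receptors were also higher in BEM and BM, and were detected in WT by 5 to 37 reads. Mrc1, the mannose receptor CD206, had 10.2 FPKM in BEM, 10.8 FPKM in BM and 0.0801 FPKM in WT, and was 127-fold higher in BEM (70.7 to 255) and 135-fold higher in BM (75.4 to 272) than in WT. Msr1, a scavenger receptor for modified lipoproteins, had 18.4 FPKM in BEM, 17.6 FPKM in BM and 0.429 FPKM in WT, and was 42.9-fold higher in BEM (30.99 to 61.1) and 40.9-fold higher in BM (29.5 to 58.4). Cd84, a self-binding receptor of the SLAM family, had 5.99 FPKM in BEM, 6.51 FPKM in BM and 0.03698 FPKM in WT, and was 162-fold higher in BEM (69.2 to 500.2) and 176-fold higher in BM (75.1 to 543).

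A group of 3 receptors did not differ 2-fold between the cultures. Cd14, the co-receptor for lipopolysaccharide, had 10.2 FPKM in BEM, 11.01 FPKM in BM and 6.26 FPKM in WT, which was 1.64 times its WT level in BEM (1.38 to 1.94) and 1.76 times its WT level in BM (1.48 to 2.097). Slamf9, another receptor of the SLAM family, had 3.93 FPKM in BEM, 2.31 FPKM in BM and 2.05 FPKM in WT, which was 1.92 times its WT level in BEM (1.39 to 2.67) and 1.13 times its WT level in BM (0.774 to 1.64). Clec7a, the beta-glucan receptor dectin-1, had 0.716 FPKM in BEM, 0.509 FPKM in BM and 0.914 FPKM in WT, which was 0.783 times its WT level in BEM (0.514 to 1.19) and 0.557 times its WT level in BM (0.336 to 0.902). WT held Cd14 at 212 reads, Slamf9 at 58 and Clec7a at 52, while Csf1r, Adgre1 and Ptprc had at most 3 there. Next above the threshold, a log2 ratio of 1, stood Ly86 in BEM at 1.89 and Lst1 in BM at 1.30; next below it stood Slamf9 in BEM at 0.80 and Cd14 in BM at 0.77.

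The Fc receptors bind the constant part of antibodies. Fcgr1, the high-affinity receptor for IgG, had 3.73 FPKM in BEM, 3.53 FPKM in BM and 0.143 FPKM in WT. Fcgr3, an activating receptor of low affinity, had 10.5 FPKM in BEM, 9.59 FPKM in BM and 0.641 FPKM in WT. Fcgr2b, the inhibitory receptor, had 2.65 FPKM in BEM, 3.07 FPKM in BM and 0.1202 FPKM in WT. All 3 were detected in WT by 8 to 24 reads and were higher in BEM and BM. Fcgr1 was 26.02-fold higher in BEM (12.99 to 61.004) and 24.7-fold higher in BM (12.3 to 57.96) than in WT. Fcgr3 was 16.3-fold higher in BEM (10.8 to 25.7) and 14.96-fold higher in BM (9.88 to 23.7). Fcgr2b was 22.1-fold higher in BEM (13.2 to 39.9) and 25.5-fold higher in BM (15.3 to 46.1). The activating Fcgr3 stood at 3.94 times the level of the inhibitory Fcgr2b in BEM and at 3.13 times in BM. Fcgr4, another receptor of the family, not among the 43, had 1.71 FPKM in BEM, 1.702 FPKM in BM and 0.0739 FPKM in WT.

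Activating Fc receptors and Trem2 have no kinase of their own and signal through partner chains. Fcer1g is the common gamma chain of the activating Fc receptors and had 16.5 FPKM in BEM, 15.6 FPKM in BM and 0.159 FPKM in WT. Tyrobp, the adaptor DAP12, had 84.99 FPKM in BEM, 80.5 FPKM in BM and 0.0696 FPKM in WT. Trem2, a lipid receptor of microglia that signals through Tyrobp, had 12.98 FPKM in BEM, 11.7 FPKM in BM and 0.0844 FPKM in WT. The adaptor Tyrobp was the most abundant of the 3, at 6.55 times Trem2 in BEM and 6.88 times in BM, and at 5.14 times Fcer1g in BEM and 5.16 times in BM. Against WT, Tyrobp was 1222-fold higher in BEM (219 to 48303) and 1158-fold higher in BM (207 to 45762). Trem2 was 154-fold higher in BEM (80.8 to 337) and 139-fold higher in BM (72.8 to 304), and Fcer1g was 104-fold higher in BEM (35.2 to 506) and 97.9-fold higher in BM (33.1 to 478).

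Downstream of the adaptors, Syk is the kinase that binds their phosphorylated motifs, and Btk and Vav1 act after it. Syk had 3.68 FPKM in BEM, 3.73 FPKM in BM and 0.362 FPKM in WT, and was 10.2-fold higher in BEM (8.01 to 13.1) and 10.3-fold higher in BM (8.09 to 13.3) than in WT. Btk, a Tec family kinase, had 2.33 FPKM in BEM, 2.86 FPKM in BM and 0 FPKM in WT, and was at least 52.8-fold higher in BEM and at least 64.7-fold higher in BM. Vav1, an exchange factor for Rac, had 5.11 FPKM in BEM, 5.28 FPKM in BM and 0 FPKM in WT, and was at least 135-fold higher in BEM and at least 140.05-fold higher in BM. Syk was thus present in WT with 73 reads, where Btk and Vav1 had none.

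Lyn, a Src family kinase that phosphorylates receptor motifs, went with neither. It had 8.38 FPKM in BEM, 7.58 FPKM in BM and 8.05 FPKM in WT, from 813 reads in BEM, 621 in BM and 707 in WT. Its level was 1.04 times its WT level in BEM (0.93996 to 1.15) and 0.941 times its WT level in BM (0.844 to 1.05), so that both intervals held 1. Of the other signalling genes, Dock2, a Rac activator of leukocyte migration, had 1.53 FPKM in BEM, 1.497 FPKM in BM and 0 FPKM in WT and was at least 126-fold higher in BEM and at least 123-fold higher in BM. Hcls1, the blood cell relative of cortactin, had 7.92 FPKM in BEM, 7.99 FPKM in BM and 0.0735 FPKM in WT and was 108-fold higher in BEM (41.8 to 397) and 109-fold higher in BM (42.2 to 401). Plek, pleckstrin, a substrate of protein kinase C, had 11.99 FPKM in BEM, 11.4 FPKM in BM and 0.372 FPKM in WT and was 32.2-fold higher in BEM (23.1 to 46.2) and 30.8-fold higher in BM (22.1 to 44.2). Apart from Lyn, the 6 genes of this signalling group were at least 10-fold higher in both mutant cultures.

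Of the genes that bind actin in leukocytes, Coro1a, coronin 1A, had 7.53 FPKM in BEM, 7.09 FPKM in BM and 0.167 FPKM in WT, and was 45.2-fold higher in BEM (24.4 to 94.8) and 42.6-fold higher in BM (22.9 to 89.4) than in WT. Lcp1, the leukocyte plastin, had 11.5 FPKM in BEM, 11.4 FPKM in BM and 0.527 FPKM in WT, and was 21.8-fold higher in BEM (17.96 to 26.6) and 21.6-fold higher in BM (17.8 to 26.5). Aif1, the microglial marker IBA1, had 5.89 FPKM in BEM, 6.04 FPKM in BM and 0.575 FPKM in WT, and was 10.2-fold higher in BEM (6.401 to 17.3) and 10.5-fold higher in BM (6.53 to 17.8). WT held 10 to 108 reads of each, so all 3 genes were detected in every culture. Coro1a shares 26 exonic bases with Bola2 on the other strand, and Cd52, Plek, Fcgr2b, Lcp1, Dock2 and Lyn also overlap exons of other genes there, by 155 to 460 bases a pair.

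The transcription factors differed from each other. Spi1 encodes PU.1 and had 9.15 FPKM in BEM, 9.65 FPKM in BM and 0 FPKM in WT, from 587 reads in BEM, 523 in BM and 0 in WT. It was at least 177-fold higher in BEM and at least 187-fold higher in BM than in WT. Irf8, a partner of PU.1 in macrophages and dendritic cells, had 2.26 FPKM in BEM, 2.21 FPKM in BM and 2.97 FPKM in WT, from 380 reads in BEM, 314 in BM and 451 in WT. It was lower in both mutant cultures by more than counting error, at 0.763 times its WT level in BEM (0.664 to 0.876) and 0.746 times its WT level in BM (0.644 to 0.864). Irf8 was highest in the culture in which no read of Spi1 was found.

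The 5 lysosome and granule genes had the highest summed level of the 10 roles, 1797 FPKM in BEM, 1769 FPKM in BM and 14.7 FPKM in WT, most of it in BEM and BM from Lyz2. Lyz2, the lysozyme of macrophages and granulocytes, had 1409 FPKM in BEM, 1380.4 FPKM in BM and 3.08 FPKM in WT, and alone made up 58.7% of the summed level of all 43 in BEM, 58.8% in BM and 7.56% in WT. Its neighbour Lyz1, a near copy that is not among the 43, had 0.299 FPKM in BEM, 0.275 FPKM in BM and 0 FPKM in WT. Gpnmb, a lysosomal glycoprotein of macrophages and of pigment and bone cells, had 173 FPKM in BEM, 174 FPKM in BM and 0.484 FPKM in WT. Lyz2 was 458-fold higher in BEM (339 to 635) and 448-fold higher in BM (332 to 622) than in WT, and Gpnmb was 358-fold higher in BEM (282 to 461) and 359.8-fold higher in BM (284 to 464). Without Lyz2 the summed level of the other 42 was 993 FPKM in BEM, 968 FPKM in BM and 37.6 FPKM in WT.

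Cd68, a lysosomal membrane protein of phagocytes, had 118 FPKM in BEM, 117 FPKM in BM and 9.23 FPKM in WT. It was the highest of the 43 in WT, where it had 250 reads, and was 12.8-fold higher in BEM (11.2 to 14.6) and 12.6-fold higher in BM (11.1 to 14.4). Mpeg1, perforin 2, which makes pores in engulfed bacteria, had 58.5 FPKM in BEM, 56.5 FPKM in BM and 1.88 FPKM in WT, and was 31.05-fold higher in BEM (26.7 to 36.3) and 29.998-fold higher in BM (25.8 to 35.1). Laptm5, a lysosomal membrane protein of blood cells, had 37.6 FPKM in BEM, 41.3 FPKM in BM and 0.0612 FPKM in WT, and was 614-fold higher in BEM (263 to 1894) and 675-fold higher in BM (289 to 2081). WT thus held lysosomal genes at unequal depth, with 176 reads of Mpeg1 and 5 of Laptm5.

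The phagocyte NADPH oxidase makes superoxide from a membrane core and cytosolic subunits. Cybb, its catalytic core gp91phox, had 5.199 FPKM in BEM, 4.52 FPKM in BM and 0.1997 FPKM in WT. Ncf1, the organiser p47phox, had 7.22 FPKM in BEM, 6.83 FPKM in BM and 0.0507 FPKM in WT. Ncf4, the lipid-binding p40phox, had 5.17 FPKM in BEM, 4.75 FPKM in BM and 0 FPKM in WT. Cybb, Ncf1 and Ncf4 stood within a narrow band in BEM and BM and were scarce in WT, at 25, 4 and 0 reads. Cybb was 26.03-fold higher in BEM (17.5 to 40.5) and 22.6-fold higher in BM (15.2 to 35.3) than in WT. Ncf1 was 143-fold higher in BEM (55.4 to 525) and 135-fold higher in BM (52.3 to 497), and Ncf4 was at least 75.1-fold higher in BEM and at least 68.95-fold higher in BM. Cyba, the p22phox chain of the membrane core, which is not among the 43, had 124 FPKM in BEM, 130.4 FPKM in BM and 19.2 FPKM in WT and was higher in BEM and BM too. Of 12 further NADPH oxidase genes 6 were measured, with a median log2 ratio to WT of -0.01 in BEM and -0.10 in BM over all 12. Of the 6, 4 were higher and 0 lower in each, and 3 of the 12 were at or above 1 FPKM in WT. Ncf1 shares 408 exonic bases with Gtf2ird2 on the other strand.

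Of the small surface proteins, Ms4a7, a tetraspan protein of macrophages, had 14.4 FPKM in BEM, 13.6 FPKM in BM and 0.0104 FPKM in WT, and was 1379.5-fold higher in BEM (247 to 54524) and 1307-fold higher in BM (234 to 51647) than in WT. Cd53, a tetraspanin of leukocytes, had 13.9 FPKM in BEM, 13.8 FPKM in BM and 0.2397 FPKM in WT, and was 58.03-fold higher in BEM (30.4 to 128) and 57.4-fold higher in BM (29.99 to 126). Cd52, a short glycoprotein of lymphocytes and monocytes, had 3.007 FPKM in BEM, 3.85 FPKM in BM and 0.117 FPKM in WT, and was 25.6-fold higher in BEM (8.48 to 127) and 32.9-fold higher in BM (10.9 to 162). The last 2 of this group had few reads throughout. Ly86, MD-1, the partner of the receptor Cd180, had 32 reads in BEM, 48 in BM and 0 in WT, and was at least 9.66-fold higher in BEM and at least 17.1-fold higher in BM. Cd180 itself had 269 reads in BEM, 243 in BM and 0 in WT. Lst1, a small membrane protein of leukocytes, had 61 reads in BEM, 29 in BM and 10 in WT, and was 5.52-fold higher in BEM (2.81 to 12.1) and 3.11-fold higher in BM (1.47 to 7.15).

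**Figure D2:**
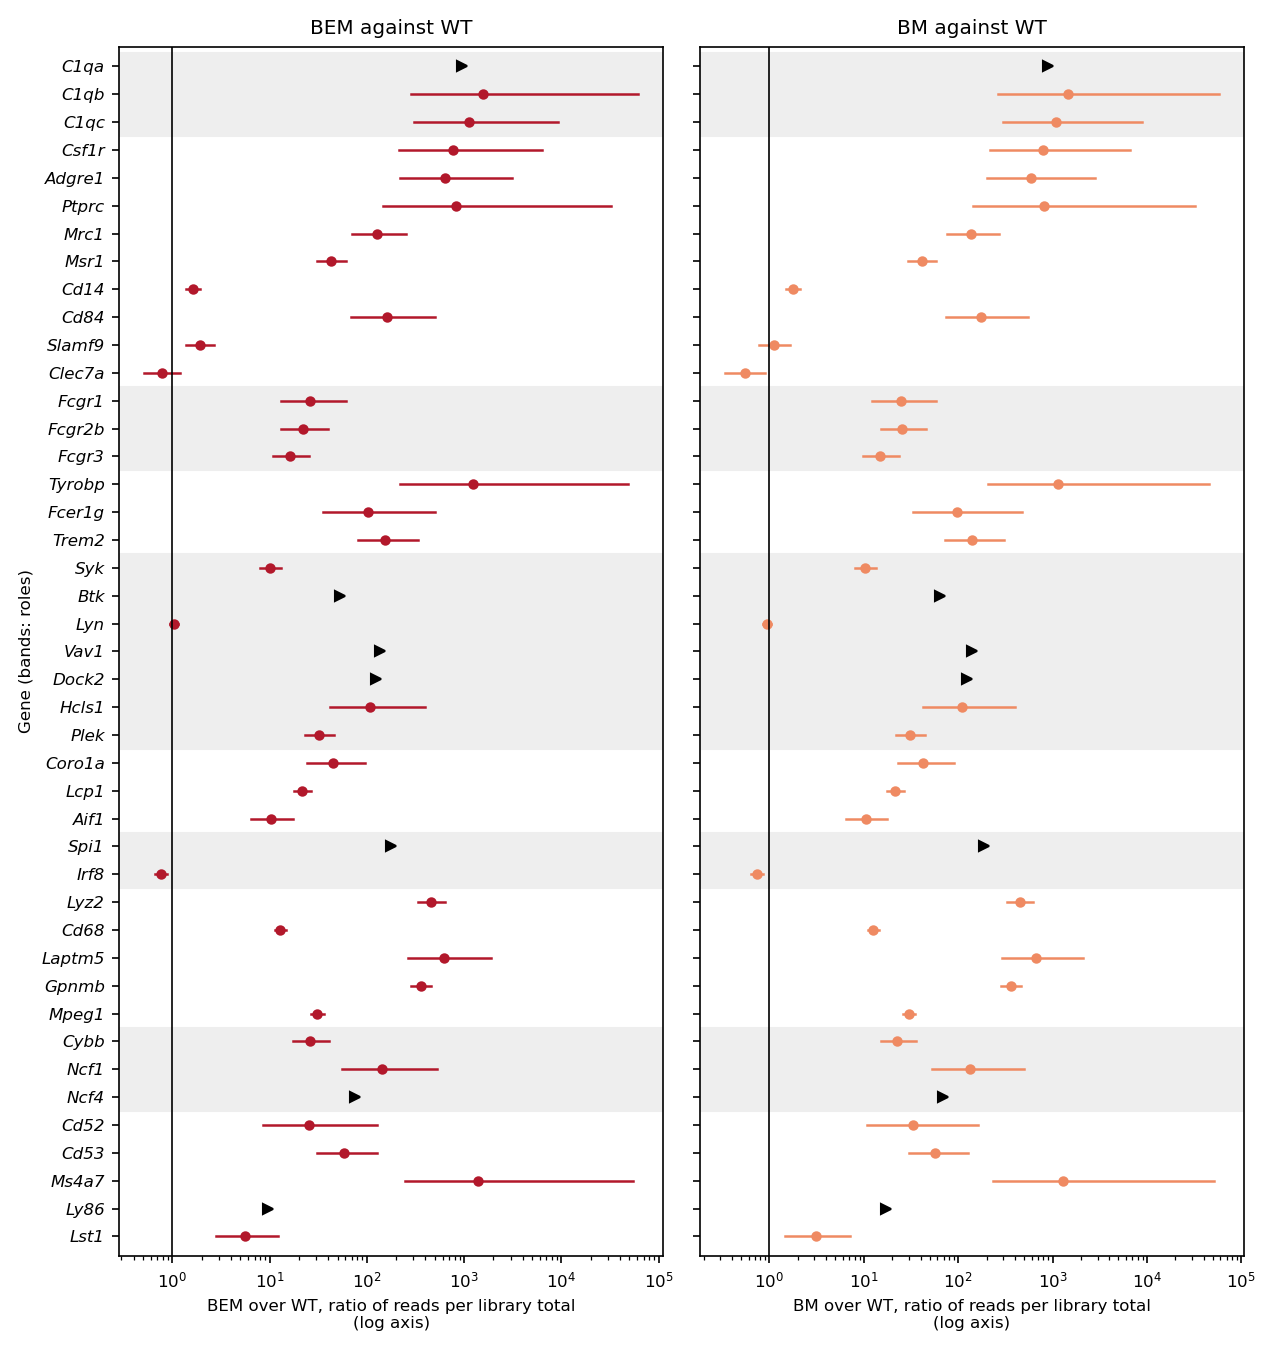
Each row is 1 gene and each point its ratio of reads per library total, BEM over WT on the left and BM over WT on the right, on log axes; lines are exact 95% counting intervals and black triangles are lower bounds where WT had no read. The intervals lie above 1 for 40 of the 43 genes in BEM and 39 in BM, while Lyn holds 1 in both panels and Irf8 lies below 1 in both.

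Judged by counting error alone, 40 of the 43 genes were higher in BEM than in WT, where 37.1% of 12860 genes were, and 1 was lower, where 43.7% were. In BM 39 were higher, where 36.4% of genes were, and 2 were lower, where 43.9% were. With genes at 0 reads in WT set at 3 reads there, the median fold over the 43 was 58.0 in BEM and 64.7 in BM. At least 10-fold higher were 36 genes in BEM and 37 in BM, and at least 100-fold higher were 20 in BEM and 19 in BM. These counts include genes with 3 reads set in for WT. How many of all measured genes passed 10-fold or 100-fold was not counted. The shares that follow are over all 47725 genes. Unlike the 12860 above, those include genes under the filter of 1 FPKM. The authors' deposited table marked 37 of the 43 as significant in BEM against WT, where 3.44% of all genes were, and 37 in BM against WT, where 3.26% were. The lowest FDR among them in the authors' deposited table was 8.05e-10 in BEM and 1.08e-09 in BM, both for C1qa.

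The 2 mutant cultures were close to each other in these genes, as they were over all measured genes, of which 0.784% were 2-fold apart. None of the 43 was 2-fold higher or lower in BEM than in BM, against 0.458% of measured genes higher and 0.326% lower. Over the 43 genes the log2 ratio of reads per library total, BEM over BM, had a median of 0.03 and quartiles of -0.04 and 0.09. Over 12033 genes with at least 20 reads in both, the quartiles were -0.06 and 0.07. In the authors' deposited table all 43 had an FDR of 1 in BEM against BM.

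The ratio differed from 1 by more than counting error for 9 of the 43. In BEM 7 were higher, against 5.75% of genes. Of these, Lst1 stood at 1.78 (1.12 to 2.87) times BM, Slamf9 at 1.703 (1.24 to 2.35), Cybb at 1.15 (1.03 to 1.29), Trem2 at 1.11 (1.03 to 1.198), Adgre1 at 1.08 (1.02 to 1.16), C1qa at 1.06 (1.01 to 1.12) and Lyz2 at 1.02 (1.001 to 1.04). In BEM 2 were lower, against 4.86% of genes: Ly86 at 0.563 (0.348 to 0.899) and Laptm5 at 0.91 (0.867 to 0.956). The 3 ratios farthest from 1, of Lst1, Ly86 and Slamf9, rest on 29 to 123 reads in each mutant library. Of the 5 genes with the most reads in BEM, Gpnmb, Lyz2, Mpeg1 and Cd68 stood between 0.995 and 1.04 times BM, while Laptm5 was lower, as given. Gpnmb had 26898 reads in BEM and 22830 in BM, a ratio of 0.995. How far 2 cultures of one line would differ was not tested.

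**Figure D3:**
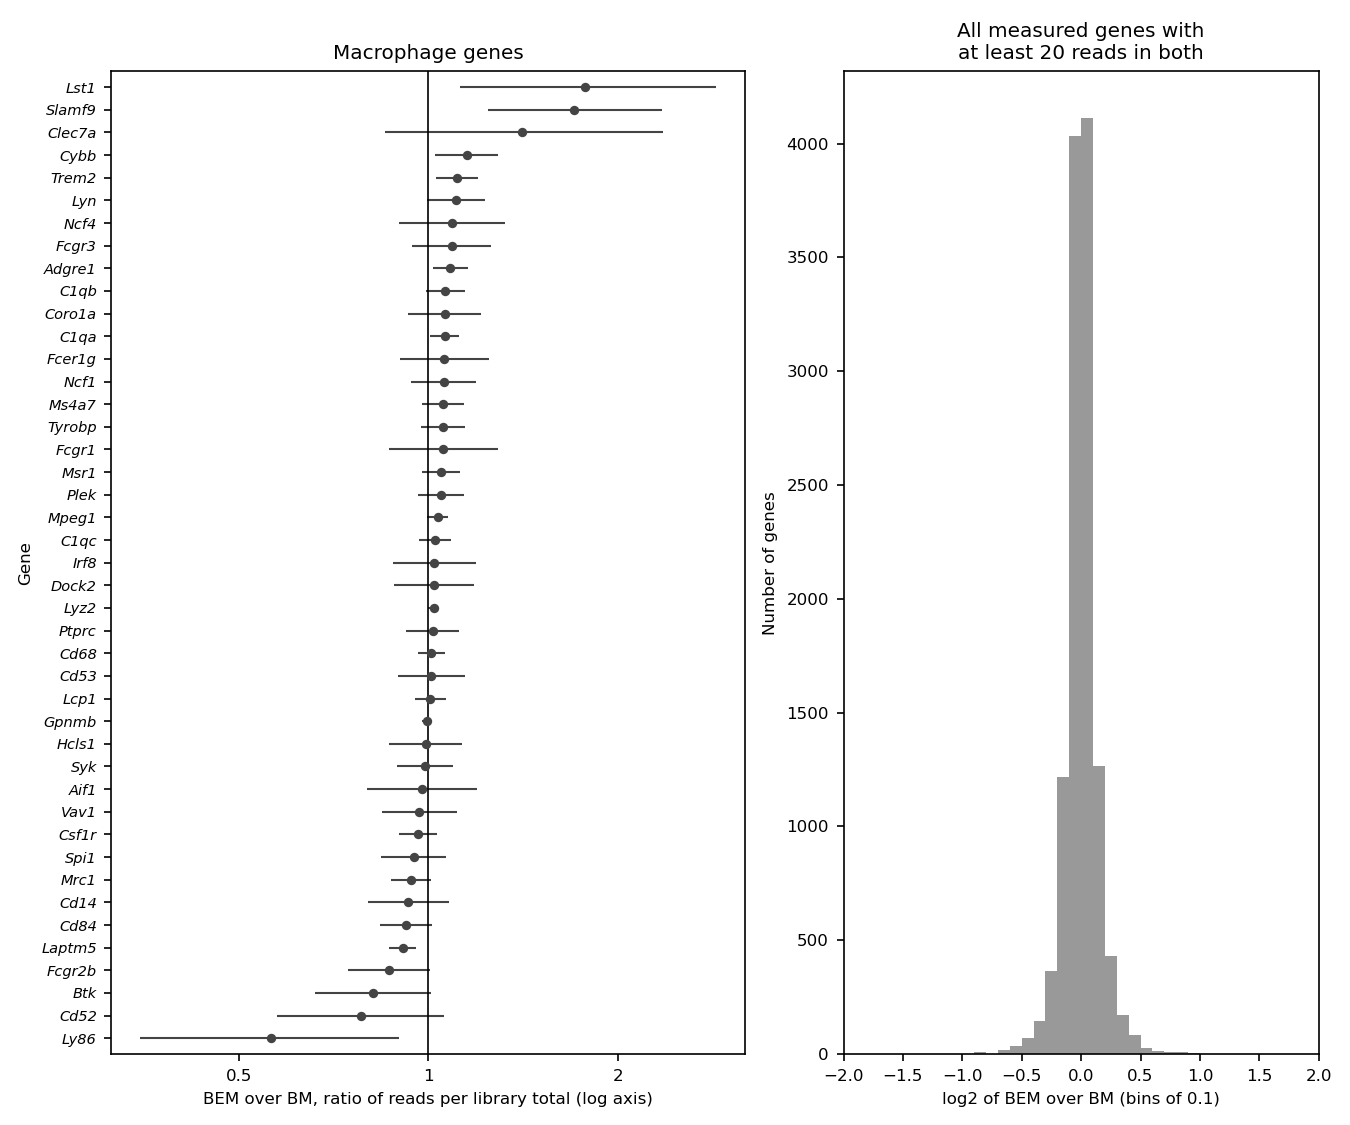
The left panel gives the ratio of reads per library total, BEM over BM, for each of the 43 genes on a log axis, with exact 95% counting intervals; the right panel counts all measured genes with at least 20 reads in both by their log2 ratio. All 43 ratios lie between 0.563 for Ly86 and 1.78 for Lst1, and 34 of the 43 intervals hold 1.

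In the genome the 43 genes lay on 18 chromosomes, with 6 on chromosome 1, 6 on chromosome 4 and 5 on chromosome 17. Some are neighbours: C1qb and C1qc lie 3.616 kb apart and C1qc and C1qa 2.851 kb, Aif1 and Lst1 9.026 kb, and Vav1 and Adgre1 30.659 kb. Fcgr2b, Fcgr3 and Fcer1g follow each other at 74.626 and 164.636 kb.

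Other genes of the same pathways were read from lists that leave out the 43, chosen with earlier results of these data known. Over all 12875 measured genes the median log2 ratio to WT was -0.07 in BEM and -0.08 in BM. Of these genes 10.7% were 2-fold higher in BEM and 10.5% in BM, and 15.3% were lower in each. List genes under 1 FPKM in WT passed the filter only through BEM and BM, which tilts the counts of measured genes toward higher. Medians are therefore given over all genes of a list. Of 35 further macrophage and microglia markers, with 23 of them measured and a median log2 ratio to WT of 0.94 in BEM and 0.83 in BM over all of them, 15 were 2-fold higher in BEM and 15 in BM, and 1 was lower in each. Ctss, cathepsin S, had 84.8 FPKM in BEM, 81.9 FPKM in BM and 0.0342 FPKM in WT. C3ar1, the receptor for complement C3a, had 21.5 FPKM in BEM, 21.4 FPKM in BM and 0.0431 FPKM in WT. Lilrb4a, an inhibitory receptor of myeloid cells, had 74.6 FPKM in BEM, 74.2 FPKM in BM and 0.498 FPKM in WT. Like C1q, these 3 were scarce in WT, with 1 to 16 reads. Apoe, the lipid carrier, which cells other than macrophages also make, was the most abundant of the list, with 410.2 FPKM in BEM, 408 FPKM in BM and 100.4 FPKM in WT.

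Of 26 further immunoreceptors and adaptors 9 were measured, and the median log2 ratio to WT over all 26 was 1.01 in BEM and 1.01 in BM. Of the 9, 8 were higher and 0 lower in each mutant culture. Only 2 of the 26 were at or above 1 FPKM in WT, so most of the 9 passed the filter only through BEM and BM. Sirpa, the inhibitory receptor for CD47, had 43.3 FPKM in BEM, 44.3 FPKM in BM and 3.66 FPKM in WT, and Clec4d, a C-type lectin of myeloid cells, had 8.903 FPKM in BEM, 9.58 FPKM in BM and 0 FPKM in WT. Pirb, an inhibitory receptor for MHC class I, had 4.32 FPKM in BEM, 3.95 FPKM in BM and 0 FPKM in WT. Of 30 leukocyte kinases, phosphatases and adaptors, with 22 of them measured and a median log2 ratio to WT of 0.71 in BEM and 0.71 in BM over all of them, 11 were higher in BEM and 12 in BM, and 1 was lower in each. Ptpn6, the phosphatase SHP-1, had 5.46 FPKM in BEM, 6.62 FPKM in BM and 0.298 FPKM in WT.

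Of 29 cytoskeletal and GTPase signalling genes of leukocytes, with 27 of them measured and a median log2 ratio to WT of 1.75 in BEM and 1.76 in BM over all of them, 17 were higher in BEM and 16 in BM, and 2 were lower in each. Rac2, the Rac GTPase of blood cells that Vav1 and Dock2 activate, had 6.93 FPKM in BEM, 7.34 FPKM in BM and 0 FPKM in WT. Nckap1l, the blood cell subunit of the WAVE complex, had 19.8 FPKM in BEM, 19.7 FPKM in BM and 1.22 FPKM in WT. Of 23 MS4A and SLAM family genes 7 were measured, with a median log2 ratio to WT of 0.02 in BEM and 0.08 in BM over all 23. Of the 7, 6 were higher and 1 lower in each, but only 1 of the 23 was at or above 1 FPKM in WT. Ms4a6d had 19.4 FPKM in BEM, 18.4 FPKM in BM and 0.0267 FPKM in WT. The highest of the list in WT was Ms4a4d, at 19.5 FPKM. Without Ms4a6d the list summed to 21.8 FPKM in BEM, 19.9 FPKM in BM and 20.2 FPKM in WT. Of 29 Toll-like receptors and adaptors, with 18 of them measured and a median log2 ratio to WT of 0.63 in BEM and 0.60 in BM over all of them, 6 were higher and 1 lower in each; Tlr7 and Tlr8, receptors for single-stranded RNA, had at most 1 read in WT. Tlr7 had 3.796 FPKM in BEM, 3.78 FPKM in BM and 0 FPKM in WT, and Tlr8 had 3.24 FPKM in BEM, 3.02 FPKM in BM and 0.0129 FPKM in WT.

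Of 31 transcription factors of blood and myeloid cells, with 18 of them measured and a median log2 ratio to WT of 0.08 in BEM and 0.08 in BM over all of them, 4 were higher and 2 lower in each mutant culture, with a summed level of 203 FPKM in BEM, 204 FPKM in BM and 396 FPKM in WT. Cebpb, a factor of macrophages that many other cells express, was lower in both, with 41.3 FPKM in BEM, 41.8 FPKM in BM and 184 FPKM in WT. Of 24 scavenger and phagocytic receptors, with 19 of them measured and a median log2 ratio to WT of 0.10 in BEM and 0.04 in BM over all of them, 4 were higher and 3 lower in each, and Stab1, a scavenger receptor of macrophages and sinus endothelium, had 12.03 FPKM in BEM, 12.5 FPKM in BM and 0.329 FPKM in WT. Of 24 leukocyte integrins and surface glycoproteins, with 13 of them measured and a median log2 ratio to WT of 0.66 in BEM and 0.63 in BM over all of them, 7 were higher and 4 lower in each. Itga4, the alpha 4 integrin, had 4.56 FPKM in BEM, 4.24 FPKM in BM and 0.282 FPKM in WT. Of 18 growth factors and receptors of myeloid cells, with 14 of them measured and a median log2 ratio to WT of 0.02 in BEM and 0.00 in BM over all of them, 5 were higher and 3 lower in each, and Il10ra, the interleukin 10 receptor, had 3.29 FPKM in BEM, 3.013 FPKM in BM and 0 FPKM in WT.

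In BEM and BM, the sums over markers of other blood cells were lower than that of the 43. The 43 summed to 2402 FPKM in BEM, 2349 FPKM in BM and 40.7 FPKM in WT. They are more genes than any of these lists and were chosen with these levels known. Lyz2 alone made 58.7% of their sum in BEM and 58.8% in BM, so the gap is partly built in. The summed level of 16 neutrophil genes was 1.07 FPKM in BEM, 1.01 FPKM in BM and 4.22 FPKM in WT, with Ngp, Retnlg, Cebpe and Fcnb at 0 in all 3 cultures. For 18 T cell and natural killer cell genes it was 0.764 FPKM in BEM, 0.803 FPKM in BM and 1.52 FPKM in WT, with Cd3e, Cd3d and Cd8a among the 7 at 0. For 11 B cell genes it was 5.65 FPKM in BEM, 5.997 FPKM in BM and 1.38 FPKM in WT, with Rag1 at 0 in all 3. Most of that sum was Ebf1, and without Ebf1 it was 0.890 FPKM in BEM, 1.11 FPKM in BM and 0.265 FPKM in WT. None of these lists had more than 1 gene at or above 1 FPKM in BEM or in BM, while Ptprc, Btk and Vav1, which lymphocytes also express, stood above 2 FPKM in both. The sum over 13 mast cell and basophil genes was 1.303 FPKM in BEM, 1.401 FPKM in BM and 16.7 FPKM in WT. Of that list Mcpt8, a basophil protease, had 0.491 FPKM in BEM, 0.582 FPKM in BM and 10.5 FPKM in WT, so that in WT it stood above the highest of the 43, Cd68. The sum over 14 erythroid genes was 1.56 FPKM in BEM, 1.802 FPKM in BM and 5.21 FPKM in WT, and over 12 megakaryocyte and platelet genes 7.34 FPKM in BEM, 6.98 FPKM in BM and 5.98 FPKM in WT.

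The sum over 12 dendritic cell genes, 3 of them measured, was 34.4 FPKM in BEM, 36.7 FPKM in BM and 49.3 FPKM in WT, with Cd209a and Siglech at 0. Most of it was Cacnb3, a calcium channel subunit that other cells also express, and without it the sum was 3.71 FPKM in BEM, 3.597 FPKM in BM and 11.6 FPKM in WT. Over 13 endothelial genes it was 15.6 FPKM in BEM, 15.6 FPKM in BM and 11.9 FPKM in WT. Over 14 chondrocyte, bone and stromal genes it was 3258 FPKM in BEM, 3354 FPKM in BM and 1429.6 FPKM in WT, and 3 were higher and 2 lower in each mutant culture. Of 13 housekeeping genes 4 were higher and 0 lower in each, with sums of 5729 FPKM in BEM, 5678 FPKM in BM and 5044 FPKM in WT. Without Eef1a1, the most abundant, the housekeeping sum was 3001 FPKM in BEM, 2981 FPKM in BM and 1905 FPKM in WT. Col1a1, a collagen chain, carried most of the stromal sum, with 2554 FPKM in BEM, 2645 FPKM in BM and 1009 FPKM in WT. Without it the stromal sum was 704 FPKM in BEM, 709 FPKM in BM and 421 FPKM in WT, and the median log2 ratio to WT over the 14 genes was 0.03 in BEM and 0.03 in BM. The part of stromal genes in the levels of the 43 was not tested. The sources used here do not say whether chicken reads were removed.

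**Figure D4:**
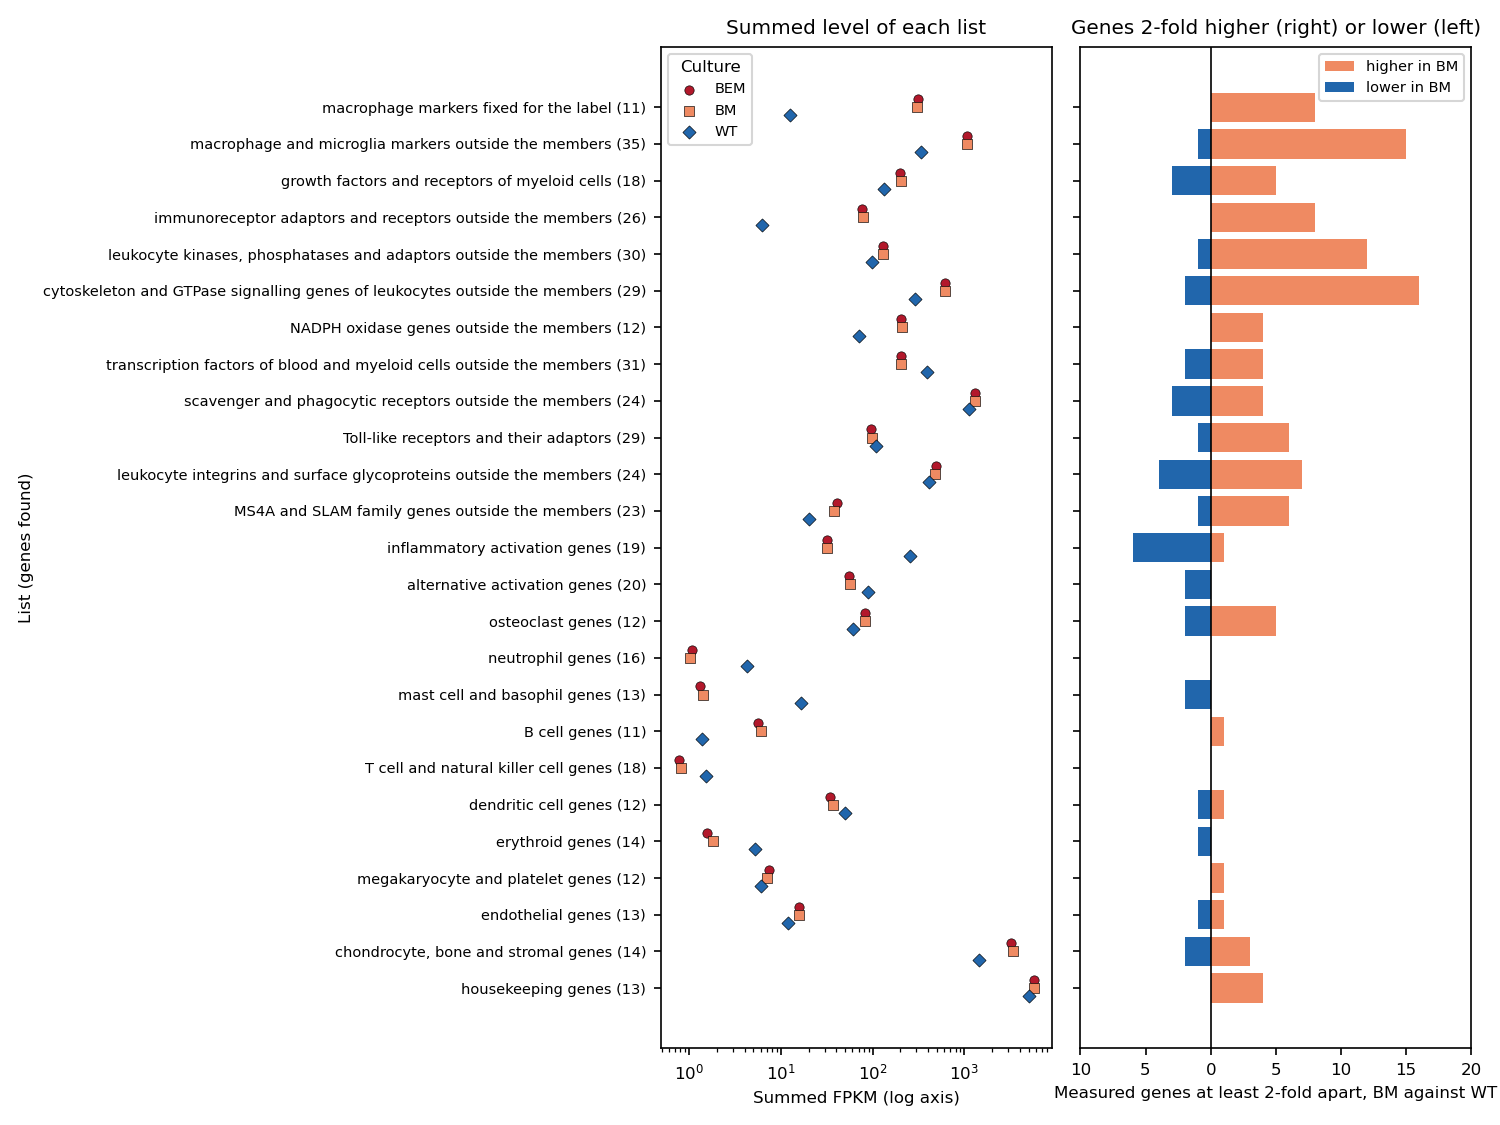
The left panel gives, on a log axis, the summed FPKM of each gene list in BEM, BM and WT, with the number of genes found in brackets; the right panel counts measured genes at least 2-fold higher (right) or lower (left) in BM than in WT. The lists of further macrophage, immunoreceptor and cytoskeletal genes lie to the right, with 15 of 23, 8 of 9 and 16 of 27 measured genes higher in BM. The inflammatory activation list lies to the left, with 6 of 8 lower and 1 higher. The alternative activation and the mast cell lists each have 2 lower and 0 higher. List genes under 1 FPKM in WT passed the filter only through BEM and BM. Of all measured genes 10.5% were higher in BM. The neutrophil and T cell lists have no bar because none of their genes was measured.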

How the data were processed

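RNA of 3 cultures, 1 library each, was enriched with oligo-dT and sequenced after TruSeq preparation, per the labels' protocols. The submitters' processing notes name edgeR, HTSeq and TopHat2 and the mouse build GRCm38, without versions. The deposited values were FPKM, per the file headers, in 3 tables of 47725 genes, 1 for each pair of libraries; 4 emptied lines of each were left out. For each gene the authors also gave a log2 ratio, a p-value and an FDR, per the file headers; the sources used here do not say how a p-value was reached with 1 library per line. Of the gene identifiers 47306 were found in GENCODE M21.

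The comparison was planned on counts or FPKM and was made on log2(FPKM + 0.5), which understates the change of low genes, for 12875 genes averaging 1 FPKM or more; 2-fold was the threshold. Since FPKM scale reads by length and depth, whole reads were recovered, to within 0.0001 reads, at the annotated exon length for 72.1% of measured genes. Where that length failed, the shortest length from 200 to 20000 bases that gave whole reads in all 3 libraries was used, which gives the fewest reads and the widest interval. This applies to 8 of the 43 genes: Csf1r, Lyz2, Adgre1, Msr1, Cd14, Ncf4, Mpeg1 and Ly86. Recovered reads in genes came to 23440708 in BEM, 19799095 in BM and 21146095 in WT. Folds are ratios of reads per library total with exact Clopper-Pearson 95% intervals. A count of 0 was set at 3 reads in that library, and the fold was then given without its interval. Reads are not independent molecules, so intervals cover counting error only.

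All 43 genes were described. Of each list, up to 4 genes with the largest ratio and at least 20 reads in 1 library could be named, and for other cell types the most abundant. Genes listed at 0, the check markers, and Csf1, Il34, Apoe, Fcgr4, Lyz1, Ms4a4d and Hmgxb3, named outside that rule, were chosen after their values were seen. The 43 genes and the lists were chosen with earlier results of these data known. Protein sequences were not analysed here. Python 3.11.15, numpy 2.4.6, scipy 1.17.1, pandas 2.3.3 and matplotlib 3.10.9 were used; the recovery was tested on simulated data. Some items are not reported here.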

Additional observations from a re-analysis of the deposited data

How the results depend on the processing

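The count of 38 genes 2-fold higher than WT in BEM and in BM was within 1.5 times of itself under every alternative but a mean of at least 10 FPKM, which left 12 genes, all 12 higher in BEM and 12 in BM. It was 27 in BEM and 26 in BM with a pseudocount of 5 FPKM, and 38 in each with the authors' deposited log2 ratio. Calling by counting interval in place of 2-fold gave 1 measured gene lower in BEM and 1 lower in BM than in WT, and 7 higher and 2 lower in BEM than in BM, where 2-fold gave 0. The median log2 ratio to WT over the 42 measured genes was 3.60 in BEM and 3.65 in BM. It was 5.46 in BEM and 5.59 in BM with a pseudocount of 0.05 FPKM, 1.40 in BEM and 1.36 in BM with 5 FPKM, and 3.60 in BEM and 3.59 in BM with no filter. It was 6.35 in BEM and 6.40 in BM at 10 FPKM or more, 3.65 in BEM and 3.71 in BM with median-of-ratios scaling, 3.67 in BEM and 3.71 in BM with upper quartile scaling, and 5.01 in BEM and 4.98 in BM with the authors' deposited log2 ratio. The BEM over BM median was 0.0574 at 10 FPKM or more and 0.0183 with median-of-ratios scaling, against 0.03. Of 226 measured genes in the lists, 100 were higher in BEM and 100 in BM, against 10.7% and 10.5% of all measured genes. This count was 41 in BEM and 42 in BM with a pseudocount of 5 FPKM and 27 in each at 10 FPKM or more. The lists were chosen with earlier results of these data known. List genes under 1 FPKM in WT passed the filter only through BEM and BM, so this contrast is partly built in. With no filter, of 436 list genes 115 were higher and 48 lower in BEM, and 114 higher and 47 lower in BM. Of the same 226 genes 33 were lower in each, against 15.3% of all measured genes in BEM and in BM. That count was 19 in BEM and 20 in BM with 5 FPKM and 12 in each at 10 FPKM or more. At a 4-fold threshold it was 15 in BEM and 16 in BM. No median changed sign. No paired analysis was possible because each line had 1 library and the labels give no replicate numbers, and no library could be left out. Depth limits the low genes: 28 of the 43 had fewer than 20 reads in WT.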

Other observations

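Of 19 inflammatory activation genes found, 8 were measured, and 6 of those 8 were 2-fold lower and 1 higher in BEM and in BM than in WT; of all measured genes 15.3% were lower in BEM and 15.3% in BM, and 10.7% were higher in BEM and 10.5% in BM. Over all 19 the median log2 ratio was 0 in BEM and 0 in BM. Their summed level was 31.6 FPKM in BEM, 32.1 FPKM in BM and 256 FPKM in WT, of which Saa3, an acute phase protein, made 0.316 FPKM in BEM, 0.843 FPKM in BM and 157 FPKM in WT. Without Saa3 it was 31.2 FPKM in BEM, 31.2 FPKM in BM and 99.3 FPKM in WT. Nos2, the inducible nitric oxide synthase, had 2 reads in BEM, 2 in BM and 1035 in WT. Ptgs2, the inducible cyclooxygenase, had 9.096 FPKM in BEM, 9.195 FPKM in BM and 52.2 FPKM in WT, and Cxcl10, an interferon-induced chemokine, had 0.6899 FPKM in BEM, 1.06 FPKM in BM and 7.37 FPKM in WT. Macrophages are not the only cells that express these genes, and which cells did so in WT was not tested.

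Of 20 alternative activation genes, 6 were measured, and 2 of those 6 were lower and 0 higher in each mutant culture. Over all 20 the median log2 ratio was 0 in BEM and 0 in BM, with sums of 55.5 FPKM in BEM, 56.1 FPKM in BM and 87.95 FPKM in WT. Chil3 and Retnla, the usual mouse markers of that state, were at 0 in all 3 cultures. The list leaves out the 43 genes and with them Mrc1, the mannose receptor, which is also used as a marker of that state. Mrc1 was 127-fold higher in BEM and 135-fold higher in BM than in WT. Of 12 osteoclast genes, which share the monocyte lineage, 8 were measured, and 5 of those 8 were higher and 2 lower in each. Of all measured genes 10.7% were higher in BEM and 10.5% in BM, and 15.3% were lower in each. Over all 12 the median log2 ratio was 0.35 in BEM and 0.24 in BM. Acp5, the tartrate-resistant acid phosphatase, had 5.002 FPKM in BEM, 6.23 FPKM in BM and 2.04 FPKM in WT, and Ctsk, cathepsin K, had 43.8 FPKM in BEM, 43.2 FPKM in BM and 7.85 FPKM in WT. The list summed to 82.4 FPKM in BEM, 82.3 FPKM in BM and 60.2 FPKM in WT. Without Ctsk the sum was 38.6 FPKM in BEM, 39.1 FPKM in BM and 52.4 FPKM in WT. Mmp9 was the highest of the list in WT, at 26.8 FPKM.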
